A study of Mus musculus with 2 samples.

Results

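The suppressors of cytokine signalling (SOCS) are 8 mouse genes, Socs1 to Socs7 and Cish, and all 8 were found by symbol among the 17215 genes listed in each of 2 RNA-sequencing tables. The tables come from MC3T3-E1 cells, pre-osteoblasts of a line established from mouse calvaria, cultured with formaldehyde (FA, a reactive aldehyde that crosslinks protein and DNA) at 100 µM or at 300 µM. Each dose is 1 library, the length of exposure is not given in the labels, and untreated cells were not analysed here, so no difference below has a replicate check. An effect of dose and a difference between separate dishes cannot be told apart. Pairs of values below give 100 µM first and 300 µM second. The family was chosen by the measured values of this same contrast, because Socs5 had one of the lowest ratios at 300 µM, so the ratios are a description and no test is given.

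SOCS proteins are the brakes of the JAK-STAT pathway. A cytokine binds its receptor, receptor-bound JAK kinases phosphorylate STAT transcription factors, and the STATs induce SOCS genes, whose products then dampen the same receptor. Each SOCS protein carries an SH2 domain, which recognises phosphotyrosine, and a SOCS box, which recruits elongins B and C and a cullin 5 ubiquitin ligase to the bound target. In osteoblasts, cytokines of the interleukin 6 family, which signal through gp130, and growth hormone act through this pathway. Cish and Socs1 to Socs3 have short amino-terminal regions and are best known as cytokine-induced feedback inhibitors, whereas Socs4 to Socs7 have long ones and are linked mainly to receptor tyrosine kinases and insulin receptor substrates.

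The promoter sequences of some of these genes were searched for short letter patterns of STAT and interferon response elements. RefSeq promoters, which run from 250 bases before to 50 bases after a transcript start (build GRCm38.p6), were given for 4 of the 8 members. These are Socs1 (chr16:10785487-10785786, minus strand) and Socs3 (chr11:117969317-117969616, minus strand), whose levels differed least between the doses, and Socs4 (chr14:47276670-47276969, plus strand) and Cish (chr9:107296409-107296708, plus strand), which were lower at 300 µM. For Socs3 and Socs4 the bases just after this start were not found in the member's GENCODE release M21 transcript. Capitals mark TTCNNNGAA, the core letters of a STAT element, which read alike on both strands, and GAAANNGAAA, a core of interferon response elements, searched on both strands and chosen after the promoters had been read.
Socs1: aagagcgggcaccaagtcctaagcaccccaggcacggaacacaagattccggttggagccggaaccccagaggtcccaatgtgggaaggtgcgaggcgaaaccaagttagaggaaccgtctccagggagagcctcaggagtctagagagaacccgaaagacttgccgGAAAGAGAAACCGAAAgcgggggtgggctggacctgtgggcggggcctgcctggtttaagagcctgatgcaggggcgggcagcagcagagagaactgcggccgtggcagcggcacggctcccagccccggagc
Socs3: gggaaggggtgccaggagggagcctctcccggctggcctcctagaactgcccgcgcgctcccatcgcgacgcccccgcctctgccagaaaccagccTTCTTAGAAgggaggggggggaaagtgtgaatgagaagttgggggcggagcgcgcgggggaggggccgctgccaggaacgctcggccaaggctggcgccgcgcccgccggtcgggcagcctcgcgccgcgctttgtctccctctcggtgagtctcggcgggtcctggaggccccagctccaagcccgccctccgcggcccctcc
Socs4: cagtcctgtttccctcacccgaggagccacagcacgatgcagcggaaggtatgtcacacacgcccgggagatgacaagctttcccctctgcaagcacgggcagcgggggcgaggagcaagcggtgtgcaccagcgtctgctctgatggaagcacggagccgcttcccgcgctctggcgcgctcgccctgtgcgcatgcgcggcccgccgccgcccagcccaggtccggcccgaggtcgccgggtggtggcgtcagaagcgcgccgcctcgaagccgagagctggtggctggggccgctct
Cish: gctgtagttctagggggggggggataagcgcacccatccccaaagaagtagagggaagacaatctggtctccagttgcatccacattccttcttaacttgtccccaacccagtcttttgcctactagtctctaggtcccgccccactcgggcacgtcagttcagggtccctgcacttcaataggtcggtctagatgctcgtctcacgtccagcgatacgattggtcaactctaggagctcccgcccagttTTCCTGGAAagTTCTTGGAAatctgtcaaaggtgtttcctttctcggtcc
The STAT motif occurred 2 times in the Cish promoter, at bases 1 to 9 and 12 to 20 after the start, and 1 time in that of Socs3, beginning 154 bases before the start. Of 32851 promoters of this length, 8.3% held it and 0.457% held it 2 or more times. The interferon motif occurred only in the Socs1 window among these 4, as 2 overlapping matches beginning 83 and 77 bases before the start, and 3.44% of all promoters held it. Such matches are letters only, and no binding was measured. The Socs4 window held neither motif, which says nothing about more distant sequence. GC content was 73.3% for Socs3, 70.7% for Socs4, 63.3% for Socs1 and 53.3% for Cish, against a median of 52.7% over all promoters.

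At 300 µM, 6 of the 8 members had levels lower than at 100 µM by 2-fold or more, 0 had higher ones by that margin, and Socs1 and Socs3 lay between. The measure was the log2 ratio of (FPKM + 1) at 300 µM to (FPKM + 1) at 100 µM, where FPKM is a fragment count scaled by transcript length and by sequencing depth. All 8 members passed the filter of a mean of at least 1 FPKM. Lower values were common in this pair of libraries, since among all 10123 compared genes 29.9% were lower by 2-fold or more and 6.09% were higher. The median log2 ratio was -1.88 over the members and -0.30 over all genes compared. Relative to that median gene, 5 members were lower and 0 higher, with 22.3% of all genes lower and 14.5% higher, and Cish no longer reached 2-fold.

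**Figure D1:**
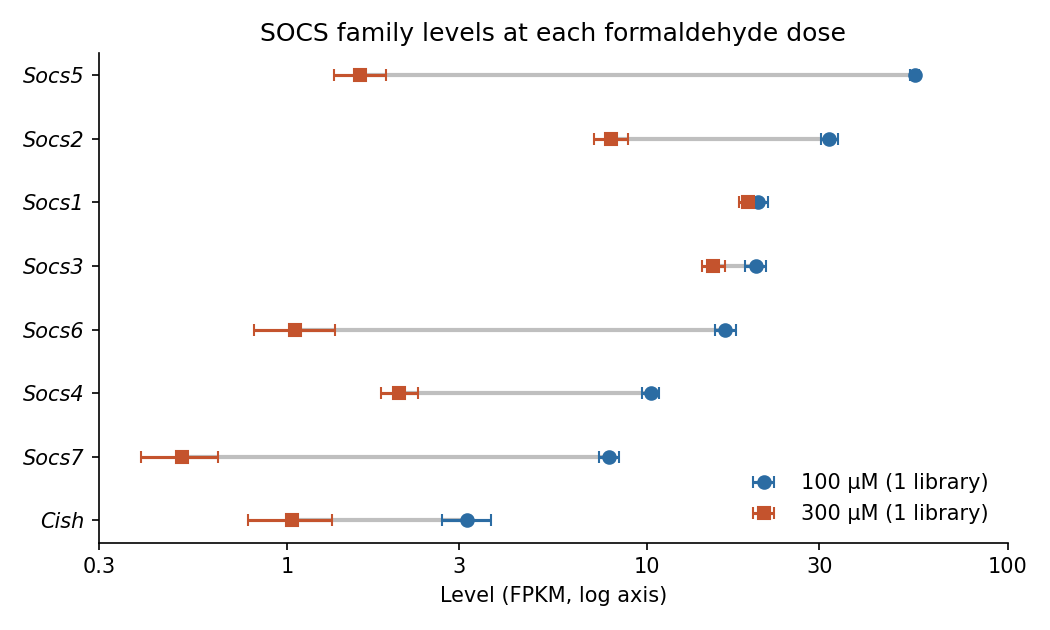
Level of each SOCS family member in FPKM (log axis) in the library at 100 µM (circles) and at 300 µM (squares), with exact 95% Poisson intervals of the estimated reads, which cover counting error only. Socs5 spans the widest gap, from 55.2 to 1.59 FPKM, while the symbols of Socs1 overlap.

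Socs1, whose protein blocks JAK kinases directly and restrains interferon gamma signalling, was the member whose level differed least. It stood at 20.3 and 19.1 FPKM, which gives a log2 ratio of -0.09, and the counting intervals of both levels overlapped. The sign of this small difference depends on the scale, since it is 0.21 relative to the median gene.

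Socs3, which binds gp130 and restrains interleukin 6 and leukaemia inhibitory factor signalling, stood at 20.0 and 15.2 FPKM. Its log2 ratio was -0.37, or -0.07 relative to the median gene. It was thus almost level with Socs1 at 100 µM and slightly below it at 300 µM.

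Socs2, which restrains growth hormone signalling and whose loss in mice causes overgrowth, was the second most abundant member at 100 µM. Its levels were 32.01 and 7.92 FPKM, with a log2 ratio of -1.89 (4.04-fold lower, with a counting interval of 3.58 to 4.56). Of the 50-base words of its transcript, 18.4% also occur in transcripts of other genes, with the largest number in Gm9847, which the tables do not list, so some of its reads could belong to a copy.

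Cish, the founding member and a target of STAT5, was the least abundant at 100 µM. It stood at 3.16 and 1.03 FPKM, a log2 ratio of -1.04, which makes it the member just inside the 2-fold threshold, with Socs3 next outside it. On raw FPKM it was 3.07-fold lower, with a counting interval of 2.26 to 4.23. An antisense gene and a pseudogene overlap it on the other strand in GENCODE release M21, and whether reads were counted by strand is not given in the sources used here.

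Socs5, which has been linked to degradation of the epidermal growth factor (EGF) receptor in cultured cells, had the second lowest log2 ratio of all 10123 genes compared. Its levels were 55.2 and 1.59 FPKM, from an estimated 4750 and 144 reads. The log2 ratio was -4.44, and on raw FPKM the level was 34.7-fold lower, with a counting interval of 29.3 to 41.1. None of its 50-base words occur in another gene (0.0%), and no gene overlaps it in GENCODE release M21.

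Socs4, the closest relative of Socs5 by its architecture, differed less. It stood at 10.2 and 2.05 FPKM, a log2 ratio of -1.88 that is close to that of Socs2. On raw FPKM Socs4 was 5-fold lower, with a counting interval of 4.38 to 5.71, and Socs2 4.04-fold.

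Socs6, which binds phosphorylated receptor kinases such as KIT and insulin receptor substrates, stood at 16.5 and 1.05 FPKM. Its log2 ratio of -3.09 was the 100th lowest of all genes compared, on an estimated 891 and 60 reads. Of its 50-base words 24.5% also occur in transcripts of other genes, with the largest number in Gm9449, which the tables do not list. In GENCODE release M21 the processed pseudogenes AC122398.2 and AC122398.3 overlap Socs6 on the same strand and AC118614.1 on the other. The levels of Socs6 are therefore uncertain.

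Socs7, which binds the adaptor NCK and insulin receptor substrates, stood at 7.82 and 0.51 FPKM, a log2 ratio of -2.55 (15.3-fold lower on raw FPKM, with a counting interval of 12.1 to 20.0). The pseudocount of 1 weighs most on such low values, which is why Socs6 and Socs7, 15.7-fold and 15.3-fold lower on raw FPKM, have different log2 ratios. All 4 members with a long amino-terminal region were thus at least 2-fold lower, as were Socs2 and Cish among the other 4. Over all genes compared the share lower was 29.9%, and the long members include Socs5, by whose ratio the family was chosen. Relative to the median of genes of like transcript length, Socs4 had -0.84 and was not 2-fold lower.

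**Figure D2:**
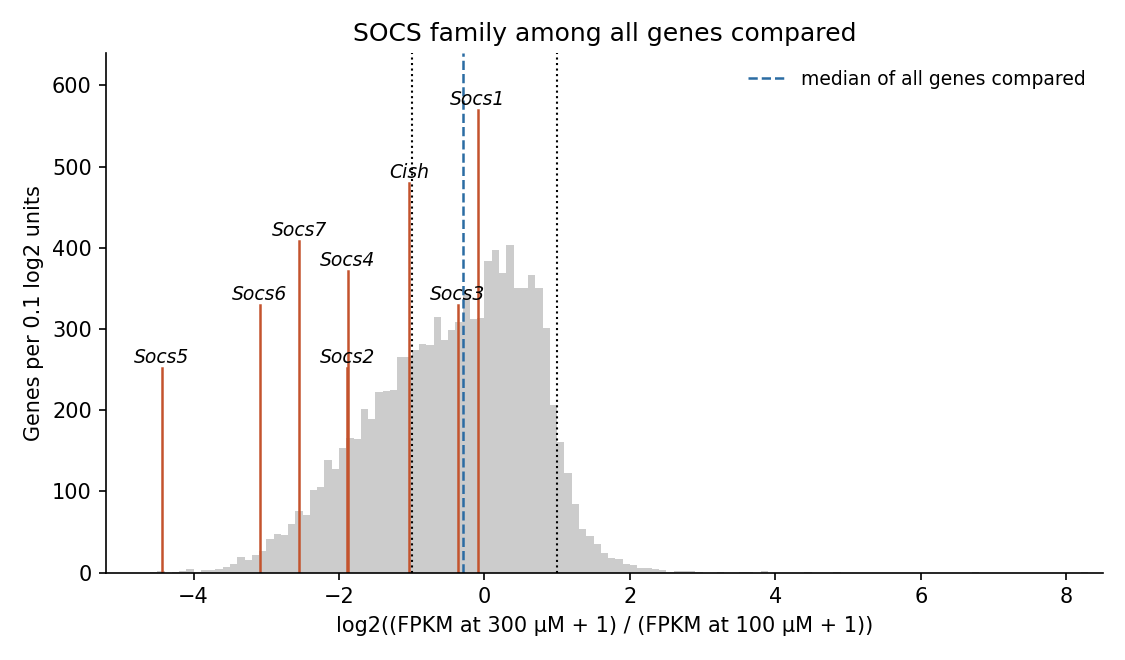
Histogram of the log2 ratio of all 10123 genes compared, in bins of 0.1, with each SOCS family member marked by a labelled line, whose height carries no value. Dotted lines mark 2-fold and the dashed line the median gene at -0.30; Socs5, Socs6 and Socs7 lie in the left tail and Socs1 and Socs3 near the median.

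The order of the members differed between the libraries. At 100 µM the order of levels was Socs5, Socs2, Socs1, Socs3, Socs6, Socs4, Socs7 and Cish, and Socs1 and Socs3 were the neighbours whose counting intervals overlapped. At 300 µM it was Socs1, Socs3, Socs2, Socs4, Socs5, Socs6, Cish and Socs7. There the intervals overlapped between Socs4 and Socs5, between Socs5 and Socs6 and between Socs6 and Cish. Socs5 supplied 33.4% and 3.28% of the family's summed FPKM. Socs1 and Socs3 together supplied 24.4% and 70.8%. The family's sum was 165.2 and 48.5 FPKM, while Socs1 and Socs3 alone summed to 40.3 and 34.3 FPKM. Socs5 was 2.76 times as abundant as Socs3 at 100 µM, and Socs3 was 9.58 times as abundant as Socs5 at 300 µM. In RNA from a whole dish, fewer cells expressing a gene and less RNA per cell cannot be told apart.

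Transcript structure differed between the members. Coding sequences were 597 to 774 bases long in Cish and Socs1 to Socs3 and 1311 to 1740 bases in Socs4 to Socs7. Most coding sequences lie in 1 exon, but that of Socs2 spans 2, that of Cish 3 and that of Socs7 9. The transcripts of Socs1 and Socs3, the members within 2-fold, had 58.8% and 58.7% GC. The other members had 38.5% to 56.4%, and the median over genes compared was 50.3%. The part of GC content in the ratios was not tested. Across 10093 genes with an annotated transcript, the log2 ratio had a Spearman's rho of -0.41 with transcript length and 0.16 with GC content, as a description over genes of the same libraries.

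Long transcripts were lower more often in these libraries. With genes divided into 5 equal groups by transcript length, 10.5% were lower by 2-fold or more in the group with the shortest transcripts (132 to 1706 bases), against 49.6% in the longest (from 4893 bases). Socs4 and Socs7 (6877 and 7015 bases) fall in that longest group, and Socs5 (4648 bases) in the fourth, where 37.5% were lower. Cish, Socs1 and Socs6 fall in the third, with 31.3% lower, although Socs6 also has a coding transcript of 6036 bases. Socs2 and Socs3 fall in the second, with 20.5% lower. After each gene was centred on the median of genes of like length, in 10 equal groups, an alternative chosen after seeing the data, 4 members were at least 2-fold lower. These were Socs5 (-3.75), Socs6 (-2.76), Socs2 (-1.74) and Socs7 (-1.50), while Socs4 had -0.84 and Cish -0.71. The part of transcript length in the ratios was not tested.

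**Figure D3:**
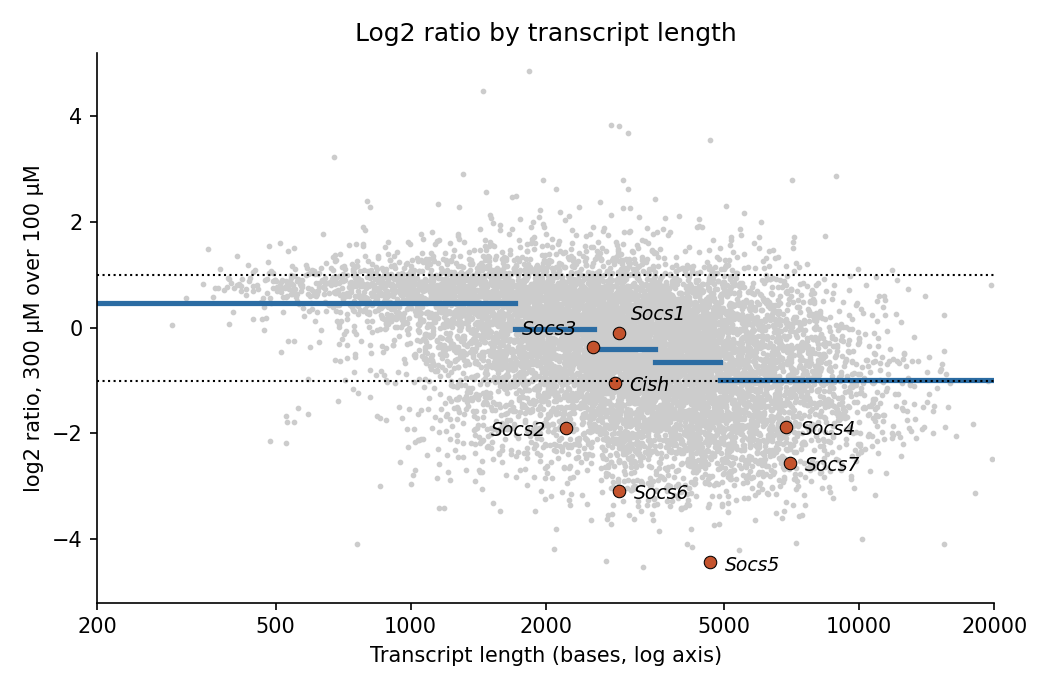
Log2 ratio of each gene against its transcript length (log axis), with SOCS family members labelled and the median ratio of each of 5 equal length groups as a bar, drawn to the axis limits; 9 genes lie outside the axes. The bars step down from 0.47 in the shortest group to -0.99 in the longest, and every member except Socs1 lies below the bar of its own group.

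Several SOCS messages are known to be short-lived, and AU-rich elements in the 3′ untranslated region mark many such messages, so the members' 3′ untranslated regions were searched for them. The pentamer ATTTA occurred 17 times in Socs4, 5 times in Socs7, 4 times each in Socs3 and Socs5, 3 times in Cish, 2 times each in Socs2 and Socs6, and 0 times in Socs1. Of 8978 genes compared whose 3′ untranslated region has at least 200 bases, 74.4% held it. Per kilobase the pentamer ranged from 0.96 in Socs7 to 3.28 in Socs4 among members that held it, with 2.71 in Socs3 and 1.54 in Socs5, against a median of 1.47 over those genes. Socs1, with none, and Socs3, with a density above the median, were both within 2-fold. The part of these elements in the ratios was not tested, and message stability was not measured. The longer core TTATTTATT, which contains the pentamer, occurred in Cish only, as 2 overlapping matches at bases 487 to 499 of the 3′ untranslated region, and 8.53% of those genes held it. This site is shown with the core in capitals and with flanking bases of the GENCODE release M21 transcript.
Cish: tacagtatTTATTTATTTATTctccttgc

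Of 16 neighbours, the nearest on each side in RefSeq (GRCm38.p6), 11 were compared, and 2 were at least 2-fold lower, Mapkapk3 beside Cish (18.6 and 3.10 FPKM) and Arhgap23 beside Socs7 (18.9 and 3.93 FPKM). The neighbours of Socs5 were Cript, at 49.96 and 39.9 FPKM, and Mcfd2, at 96.0 and 58.2 FPKM, with log2 ratios of -0.32 and -0.71. The median over the 11 was -0.09, and with 29.9% of all genes lower, this count is too small to be read as a difference from other genes.

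The genes with values most like those of Socs5 over the 2 libraries, by distance on the log2(FPKM + 1) scale, were Ppp1r10, the thiamine transporter gene Slc19a2, the p53-induced receptor gene Eda2r, the EGF receptor ligand gene Ereg and the adaptor gene Bcar1. Their distances were 0.51 to 0.58 and their log2 ratios -3.62 to -4.10. Those most like Socs1 included Abcd3, Arhgef2, Irf3 and Tmem189, with distances of 0.02 to 0.04. This likeness rests on 2 libraries and says nothing of shared control.

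Outside the family, 108 of 162 listed genes of the same signalling routes were compared, of which 37 (34.3%) were lower by the same 2-fold margin and 4 (3.7%) higher, shares near those of all genes. These lists, like the members, were chosen with earlier results of these data known. Where 5 or fewer genes of a list passed 2-fold, all are named, some of them only because their values had been seen. Among ligands of JAK-coupled receptors, 1 of 6 compared was lower (16.7%, against 29.9% of all genes) and 0 higher. The lower ligand was Il11 (interleukin 11), at 51.99 and 5.22 FPKM. Lif and Il6 were below the filter, at 1.34 and 0.22 FPKM and at 0.33 and 0.81 FPKM.

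Of 18 receptor chains compared, 5 were lower (27.8%, against 29.9% of all genes) and 1 higher. Il6st, which encodes gp130, the shared chain that Socs3 binds, stood at 29.2 and 9.06 FPKM. Il4ra (11.9 and 1.90 FPKM), Ifngr1 (28.2 and 6.20 FPKM), Osmr (11.7 and 4.22 FPKM) and Il15ra (4.81 and 1.63 FPKM) were the other receptor genes lower. The leptin receptor gene Lepr was the one higher, at 0.75 and 6.90 FPKM, and the growth hormone receptor gene Ghr had a log2 ratio of 0.99, from 6.87 and 14.6 FPKM, just within 2-fold. Relative to the median gene Ghr passes 2-fold and only Il4ra, Ifngr1 and Il6st among receptors remain lower.

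Of 10 JAK and STAT genes, 2 were lower (20%, against 29.9% of all genes) and 0 higher. The kinase gene Jak2 stood at 8.24 and 2.75 FPKM and Stat3 at 35.3 and 16.2 FPKM. Relative to the median gene Stat3 had -0.77 and only Jak2 remained lower. Jak1 had a log2 ratio of 0.22, Stat5a -0.97 and Stat5b -0.30. Of 11 inhibitors of the pathway outside the SOCS family, 5 were lower (45.5%, against 29.9% of all genes). These were the phosphatase gene Ptpn1 (20.2 and 3.12 FPKM), the adaptor gene Sh2b3, the SUMO ligase genes Pias4 and Pias1, and the ubiquitin ligase gene Cbl. Pdlim2, a ubiquitin ligase gene for STAT proteins, was the 1 higher, at 12.2 and 49.9 FPKM.

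Of 19 genes induced through STAT3 or STAT5, 9 were lower (47.4%) and 2 higher (median -0.93), against 29.9% and 6.09% of all genes. Relative to the median gene 5 were lower and 2 higher, with 22.3% and 14.5% of all genes. Il4ra, Osmr and Stat3, which are among those lower, were already counted in the lists above. Vegfa had the lowest ratio, at 91.8 and 7.08 FPKM, and Fos the highest, at 7.35 and 50.4 FPKM; the other gene higher was Junb, at 87.2 and 216 FPKM.

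Of 10 compared genes that encode partners of the SOCS box, 1 was lower by 2-fold or more (10%, against 29.9% of all genes) and 0 higher. Their ratios lay on both sides of 0, from -1.39 to 0.89, with a median of 0.01. The scaffold gene Cul5 was the lower one, at 10.8 and 3.48 FPKM. Elob stood at 441 and 815 FPKM, Eloc at 72.9 and 90.9 FPKM and the RING subunit gene Rnf7 at 47.5 and 38.7 FPKM. Relative to the median gene Elob passes 2-fold as higher. Among genes of other proteins with a SOCS box, such as the ankyrin repeat (ASB) group, 9 of 16 compared were lower (56.2%) and 0 higher. Over all genes these shares were 29.9% and 6.09%. The median of this group was -1.32. Asb8 had the lowest ratio, at 19.0 and 1.61 FPKM, and Rab40b the highest, at 0.91 and 1.94 FPKM.

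Of 18 receptor tyrosine kinase and docking protein genes, 6 were lower (33.3%, against 29.9% of all genes) and 0 higher (median -0.50). The insulin receptor substrate genes Irs2 and Irs1 had the lowest ratios, at 13.6 and 1.10 FPKM and at 14.9 and 1.63 FPKM. Egfr was low at both doses, at 3.51 and 4.51 FPKM, and Sorbs3 had the highest ratio (0.52). Of 3 EGF receptor ligand genes compared, 2 were lower (66.7%, against 29.9% of all genes). These were Ereg (63.7 and 2.78 FPKM) and Hbegf (70.1 and 30.8 FPKM), and Areg had -0.39. Relative to the median gene Hbegf had -0.86 and only Ereg remained lower.

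**Figure D4:**
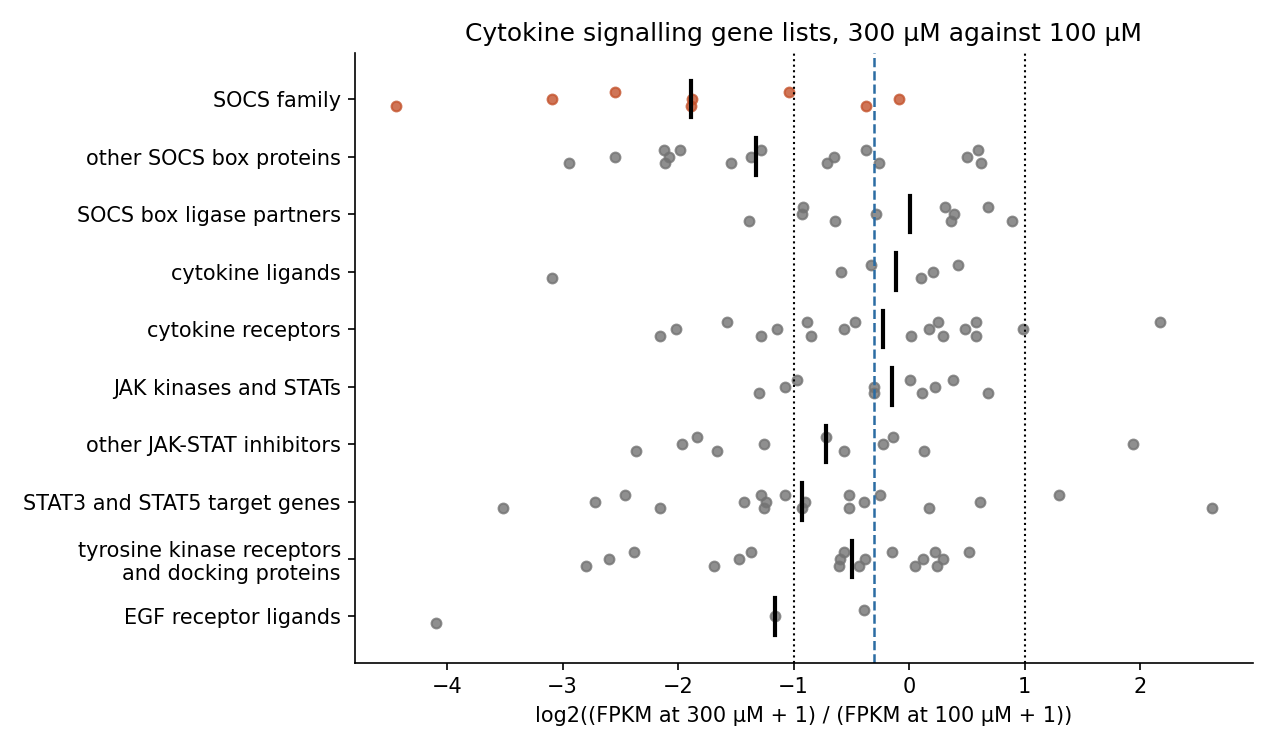
Log2 ratio of each compared gene (points) in the SOCS family and in 9 lists of the same signalling routes, with list medians as bars, 2-fold as dotted lines and the median gene as a dashed line. The family, chosen by the ratio of Socs5 in these data, has the lowest median of these 10 lists, -1.88. The SOCS box ligase partners have the highest, 0.01. Transcript length differs between the lists. Partners such as Nedd8 (514 bases) and Elob (537 bases) fall in the shortest length group, with a median of 0.47 and 0 SOCS members, although Cul5 has 5942 bases. The part of length was not tested.

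Of the matrix genes listed for the osteoblast lineage, Col1a1, Col1a2, Sparc and Spp1 were abundant in both libraries, with Col1a1 at 2065 and 1714 FPKM. The bone sialoprotein gene Ibsp was not, at 1.83 and 1.77 FPKM. The lineage factor genes Runx2 and Sp7 stood at 7.99 and 3.60 FPKM and at 7.21 and 9.47 FPKM, and the differentiation markers Alpl and Bglap were at or below 1.06 FPKM. Of 11 osteoblast markers compared, 1 passed 2-fold as lower, the transcription factor gene Dlx5 (32.88 and 7.04 FPKM), and 1 as higher, the osteomodulin gene Omd (1.52 and 9.94 FPKM). Over all genes compared, 29.9% were lower and 6.09% higher. Of 11 listed macrophage and blood markers 3 reached 1 FPKM in a library. Cd14 (6.36 and 0.94 FPKM) and Cd68 (2.57 and 0.77 FPKM) were lower by 2-fold or more, while Lyz2 stood at 13.2 and 26.51 FPKM and carried the higher sum of the list at 300 µM (22.7 and 28.8 FPKM). Adgre1, Tyrobp and Hbb-bs were at 0 in both. None of 6 adipocyte (0 of 6) or 6 endothelial markers reached 1 FPKM. The libraries held an estimated 18500000 and 19400000 fragments. Summed FPKM was 532944 and 691521, and the 100 most abundant genes held 37.7% and 49.4% of it, so a given FPKM is a smaller share of the total at 300 µM.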

How the data were processed

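RNA of MC3T3-E1 cells was sequenced at 2 formaldehyde doses, 1 library each, grouped by the agent label. The authors deposited 1 table of FPKM per gene for each library, with 2 decimals, per the file headers. The submitters' processing notes name the aligner Bowtie2 and the quantifier RSEM with no version. Genome build, annotation and strand setting: not given in the sources used here. RSEM divides reads among isoforms and copies by estimate, which can move the values of members with copies.

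Symbols came from RefSeq (GRCm38.p6) by NCBI gene number for 17179 of 17215 rows and from GENCODE release M21 for 7 more. Transcript features came from GENCODE release M21, from 1 coding transcript per gene, matched to RefSeq where possible and the longest of those. The log2 ratio used a pseudocount of 1 and kept genes whose mean over both libraries reached 1 FPKM, and 2-fold or more (exact ties included) counted as higher or lower. No p-value was computed. Members and gene lists were chosen with earlier results of these data known. Named genes are the members, the highest and lowest ratio of each list, fixed partners, the nearest neighbours and the 5 most alike genes; a few of these are not reported here.

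Depth was estimated from steps in low values of genes with 1 short transcript: FPKM times length fell within 0.12 reads of whole numbers for 70.7% of 75 values at 100 µM (step of 54 bases) and 66.1% of 56 at 300 µM (51.5 bases), the best of the steps tried, whose medians were 17.2% and 16.9%. RSEM's own effective lengths were not used. Reads were estimated from these steps and the GENCODE length, so read numbers and their exact 95% intervals (Poisson for a level, Clopper-Pearson for a ratio) are approximate and cover counting error only. The code of the comparison was run on simulated libraries with planted changes, counting error only and no variation between dishes. That run therefore says nothing of false calls between the real libraries. The alternatives changed the pseudocount (0.1 or 5), the filter (none, or a mean of 10 FPKM), the threshold (1.5-fold or 3-fold) and the scaling (median gene, TMM factor or equal sums); centring within 10 groups of transcript length was added after seeing the data. Computation used Python 3.11.15 with scipy 1.17.1, numpy 2.4.6, matplotlib 3.10.9 and pandas 2.3.3.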

Additional observations from a re-analysis of the deposited data

How the results depend on the processing

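The count of 6 SOCS members lower held with a pseudocount of 0.1, no filter, 1.5-fold and equal sums. It was 5 with a pseudocount of 5, 3-fold, centring or the TMM factor, and 4 with centring by length, which was chosen after seeing the data. Under the filter on a mean of 10 FPKM, where 4 members were compared, it was 2 (Socs5 and Socs2). No member was higher under any of these. The members' median was -2.13 and -1.17 with pseudocounts of 0.1 and 5, -1.13 under the 10 FPKM filter, -1.59 with centring, -1.57 with TMM, -2.21 with equal sums and -1.17 with centring by length. Socs1 turned positive with centring (0.21), TMM (0.29) and centring by length (0.24), and Socs3 with TMM (0.01). Over all genes, 1631 were lower and 258 higher with a pseudocount of 5, 1141 and 358 under the 10 FPKM filter, 1653 and 123 at 3-fold, and 1843 and 1172 with centring by length. Genes higher numbered 1901 at 1.5-fold, 1472 with centring, 1731 with TMM and 237 with equal sums. Pathway genes lower were 24 with a pseudocount of 5, 19 under the 10 FPKM filter and 22 at 3-fold. Pathway genes higher were 11 at 1.5-fold, 8 with TMM and 12 with centring by length. A stricter filter tests fewer genes; other causes were not tested. No paired analysis was possible because each dose has 1 library. Depth limits the lowest members at 300 µM, with an estimated 57 to 69 reads for Cish, Socs6 and Socs7.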
